A study of Danio rerio with 11 samples.

Results

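The hox genes of zebrafish tails are described here: every identifier of the count table whose symbol reads hoxa, hoxb, hoxc or hoxd followed by a number, with antisense and non-coding names left out. The choice rests on symbols alone and used no measured value. It gave 48 of 23617 identifiers, with 11 in cluster a, 15 in cluster b, 15 in cluster c and 7 in cluster d. By position in the cluster, 10 belong to paralog groups 1 to 3 (called anterior here), 15 to groups 4 to 8 (central) and 23 to groups 9 to 13 (posterior), of which 6 are group 13 genes.

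Hox genes encode homeodomain transcription factors that stand in rows on the chromosome, and their order in the row matches the order in which they are switched on along the body, from hindbrain to tail. The genes at the low-numbered end act in the hindbrain and pharyngeal arches, those in the middle in the trunk, and those at the high-numbered end in the posterior trunk, the tailbud and the fins. Their domains are set by retinoic acid, Wnt, Fgf and Cdx proteins and are then held on or off through Trithorax and Polycomb complexes. Hox proteins bind DNA together with TALE homeodomain partners of the Pbx, Meis and Pknox families. Lsd1, encoded by kdm1a, removes methyl groups from histone H3 and acts in several repressor complexes, and the comparison of mutants with wildtypes asks how its mutation is met in the tail transcriptome.

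RNA came from the tail behind the yolk sac of zebrafish embryos at 24 hours post fertilisation, with 5 tails pooled per library and 11 libraries in all. The groups were 3 libraries of lsd1 mutants of line 23095, 2 libraries of wildtypes of line 23095, 3 libraries of lsd1 mutants of line 36433 and 3 libraries of wildtypes of line 36433, and the wildtypes were siblings of the mutants. The labels give neither the lesion in each line nor the clutch of any pool, so p-values measure the spread between pools, which may be technical. In whole tails, fewer cells of a type and less RNA per cell cannot be told apart.

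Libraries held 8204459 to 17195875 counts, and 23095 mutant replicate 2 was the shallowest. The mutated gene was measured at 130, 170 and 130 CPM (counts scaled to the size of the library) in the 23095 mutants and at 124 and 142 CPM in the 23095 wildtypes. It stood at 36.9, 34.2 and 34.8 CPM in the 36433 mutants, against 162, 155 and 135 CPM in the 36433 wildtypes. The level of kdm1a therefore separated the genotypes of line 36433 (log2 fold change -2.10, adjusted p = 6.9e-05 by edgeR's quasi-likelihood test) and did not separate those of line 23095 (log2 fold change 0.11, adjusted p = 0.781), whose genotypes rest on the labels. Tail tissues were well covered, with skeletal muscle markers summing to between 20518 and 59570 CPM. Of the 12 head and hindbrain markers found in the table, 3 stayed under 1 CPM in every library, and all 12 together summed to between 44.2 and 66.6 CPM.

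All 48 hox genes were detected in every library and passed the filter on low counts, with counts of up to 2482 (hoxc3a). Together they took 0.110% to 0.185% of the counts of a library. CPM are not adjusted for gene length, so levels are compared between libraries and not between genes. For 33 of the 48 the symbol is in the upper-case human style, and 5 symbols (HOXA11, HOXB5, HOXC6, HOXC12 and HOXC13) stand on 2 identifiers each, which are told apart here by their Ensembl number. In RefSeq's annotation of a later assembly, GRCz12tu, 13 pairs of hox genes have overlapping spans, most of them a group 3 gene that reaches over its higher-numbered neighbours, and counts of such neighbours are uncertain to that extent.

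**Figure D1:**
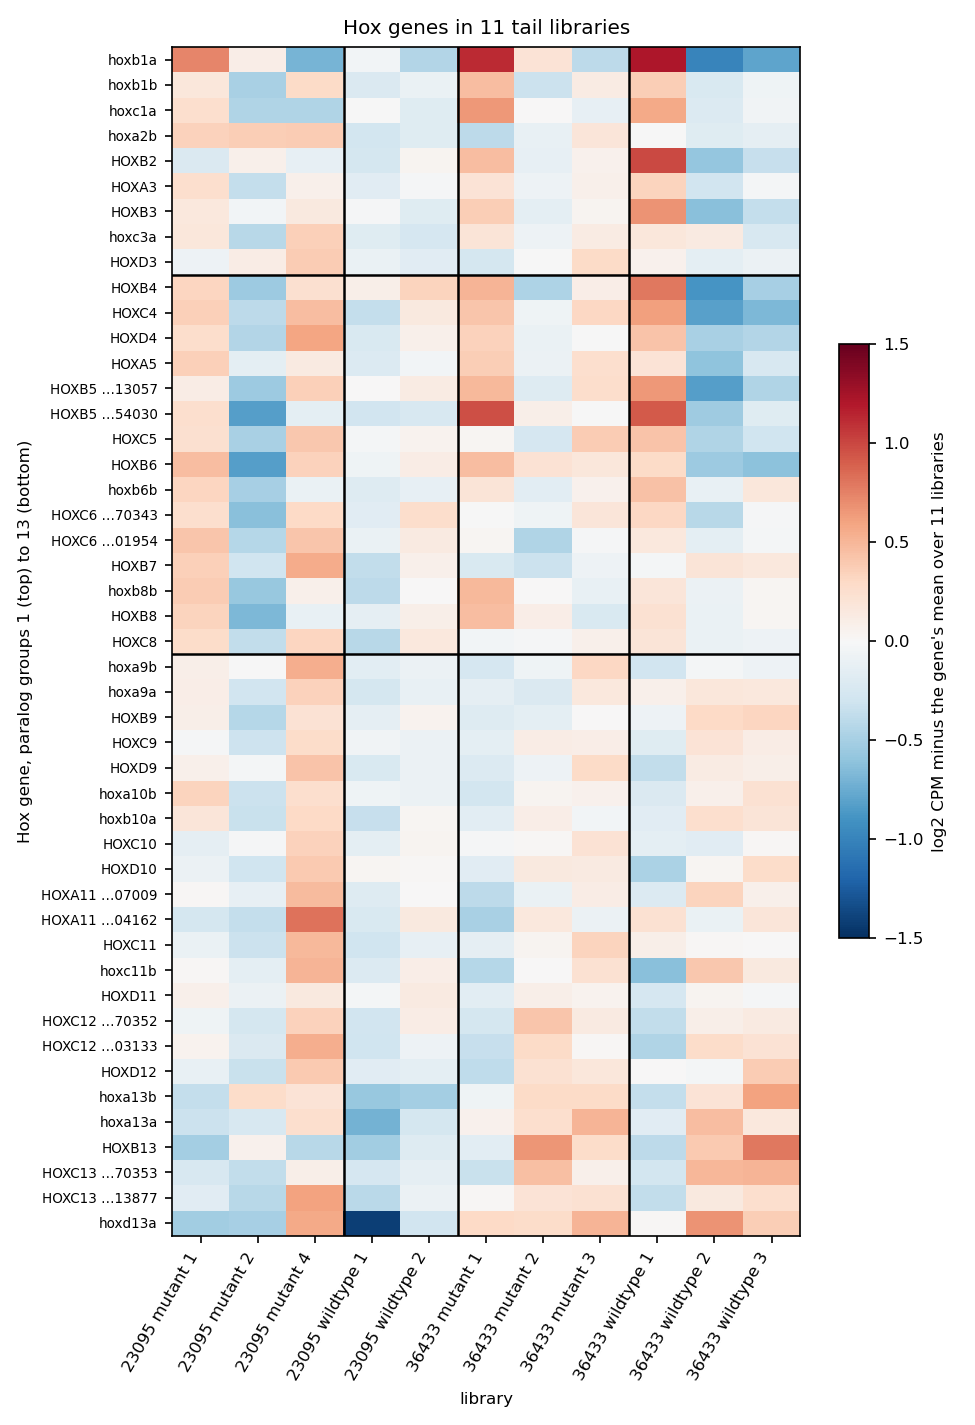
Heat map of 47 hox genes (rows, paralog group 1 at the top to 13 at the bottom, with lines between groups 1 to 3, 4 to 8 and 9 to 13) in the 11 libraries (columns), coloured by log2 CPM minus the gene's mean over all libraries. Replicate 1 of both 36433 groups is mostly red above the lower line and mostly blue below it, 23095 mutant replicate 2 is blue over most genes, and hoxd13a is deepest blue in 23095 wildtype replicate 1.

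Some libraries stood apart in the balance of anterior and posterior hox genes, and they did so without regard to genotype. The posterior genes summed to 0.979, 1.53 and 1.43 times the anterior genes in the 36433 mutants and to 0.909, 1.81 and 1.78 times in the 36433 wildtypes. The same ratio was 1.21, 1.37 and 1.56 in the 23095 mutants and 1.29 and 1.49 in the 23095 wildtypes. Replicate 1 thus had the lowest ratio in every group, and it stood furthest below the others in the 36433 groups. The ratio is read between libraries only, because CPM are not adjusted for gene length.

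In the 36433 libraries numbered 1, the tilt lay mainly between the posterior genes and the others. Each library was set against the other libraries of its own group, gene by gene, and the log2 difference was ranked against the paralog number over the 48 genes. Spearman's rho was -0.72 in 36433 mutant replicate 1 and -0.85 in 36433 wildtype replicate 1, which says that low-numbered genes were relatively high and high-numbered genes relatively low. In 36433 wildtype replicate 1 all 10 anterior and 14 of 15 central genes were above the other wildtype libraries of that line, but only 2 of 23 posterior genes were. In 36433 mutant replicate 1, 7 of 10 anterior, 11 of 15 central and 0 of 23 posterior genes were above. Anterior and central genes hardly differed in their median log2 difference, at 0.60 and 0.63 in that wildtype library and 0.31 and 0.29 in that mutant library. The posterior medians were -0.41 and -0.32. Within line 23095, mutant replicate 1 leaned the same way (rho -0.64) and mutant replicate 4 the other way (rho 0.48), while mutant replicate 2 lay above the other mutants of its line in only 5 of 48 genes. These correlations are across genes of shared libraries and clusters and are given as a description.

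**Figure D2:**
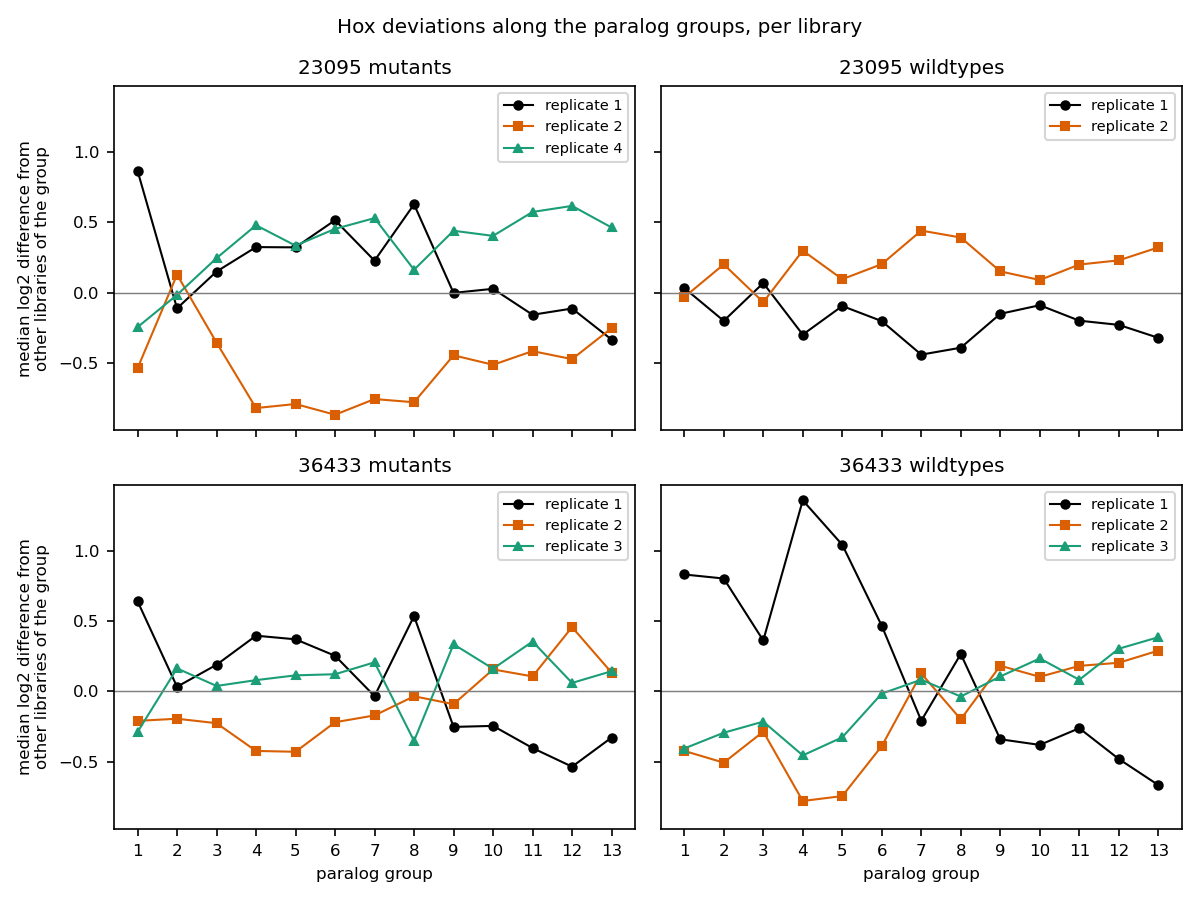
Median log2 difference of each library from the other libraries of its group (vertical axis) for the hox genes of each paralog group from 1 to 13 (horizontal axis), with 1 panel per group of libraries. In both 36433 panels replicate 1 runs from above 0 at low paralog numbers to below 0 at groups 9 to 13, while in the 23095 mutants replicate 2 lies under 0 at every paralog group but 2.

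Some markers of other tissues also differed between the 36433 wildtype library that stood apart most and the others of its group. CYP26B1, which breaks down retinoic acid, was at 21.2 CPM in 36433 wildtype replicate 1, against 2.56 and 3.71 CPM in the other wildtypes of that line. EGR2, a marker of hindbrain segments, was at 1.73 CPM there and at no more than 0.375 CPM in any other library. The head and hindbrain markers as a list did not stand apart there, with a sum of 48.2 CPM against 62.3 and 45.6 CPM in the other 36433 wildtypes, and with 3 of 12 markers above and 4 of 12 below both of them. The summed epidermis markers were 17271 CPM in that library, against 37620 and 34070 CPM in the other 36433 wildtypes. Outside the 36433 wildtypes they summed to between 15970 and 24783 CPM, so those other wildtypes were the high ones. In 36433 mutant replicate 1, which leaned the same way in its hox genes, they summed to 20977 CPM and EGR2 was at 0.0781 CPM. The part of these markers in the hox values was not tested.

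No hox gene passed the test in any of the 6 comparisons made. These were mutants against wildtypes within line 23095 and within line 36433, the average of these effects, the difference of these effects between the lines, and the 2 comparisons of line 23095 with line 36433 within a genotype. By the quasi-likelihood test of edgeR, adjusted over 20886 genes after Benjamini and Hochberg, 0 of 48 hox genes had an adjusted p under 0.05 in the 23095 mutants against the 23095 wildtypes, where 1.63% of all tested genes did. The count was also 0 in the 36433 mutants against the 36433 wildtypes (0.168% of all genes), in the average of both lines (2.33%), in the difference between lines (0.00958%), in the 23095 wildtypes against the 36433 wildtypes (0.393%) and in the 23095 mutants against the 36433 mutants (1.13%). DESeq2 called 0 hox genes in each of the 6 as well.

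At an unadjusted p under 0.05, the quasi-likelihood test found 1 hox gene higher and 0 lower in the 23095 mutants, where 7.92% of all genes were higher and 8.91% lower. It found 0 in either direction in the 36433 mutants (4.11% and 2.64% of all genes) and 1 higher in the average (8.57% of all genes higher, 8.83% lower). The difference between lines had 2 hox genes at that level, both larger in line 23095 (3.34% of all genes larger there, 4.26% smaller). Between wildtypes there were 3, all lower in line 23095 (6.09% of all genes, with 7.6% higher), and between mutants 2, both higher in line 23095 (6.66% of all genes, with 7.12% lower). These shares of hox genes were close to or below those of all genes.

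The intervals show which differences lay outside the range estimated for a single gene, without adjustment for the number of genes tested. They do not bound what could go uncalled, because a call needed an adjusted p under 0.05. Between wildtypes, for example, hoxd13a differed by more than 2-fold and was not called (log2 fold change -1.12, adjusted p = 0.207, edgeR). The 95% interval of the log2 fold change lay wholly between -1 and 1, that is within 2-fold, for 41 of 48 hox genes in the 23095 mutants against wildtypes, for 44 in the 36433 mutants against wildtypes and for 47 in the average. It lay within 1.5-fold for 6, 22 and 35 genes in the same order. For most hox genes a 2-fold change was therefore outside the interval in each line, while a change of 1.5-fold was inside it for most of them in line 23095.

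**Figure D3:**
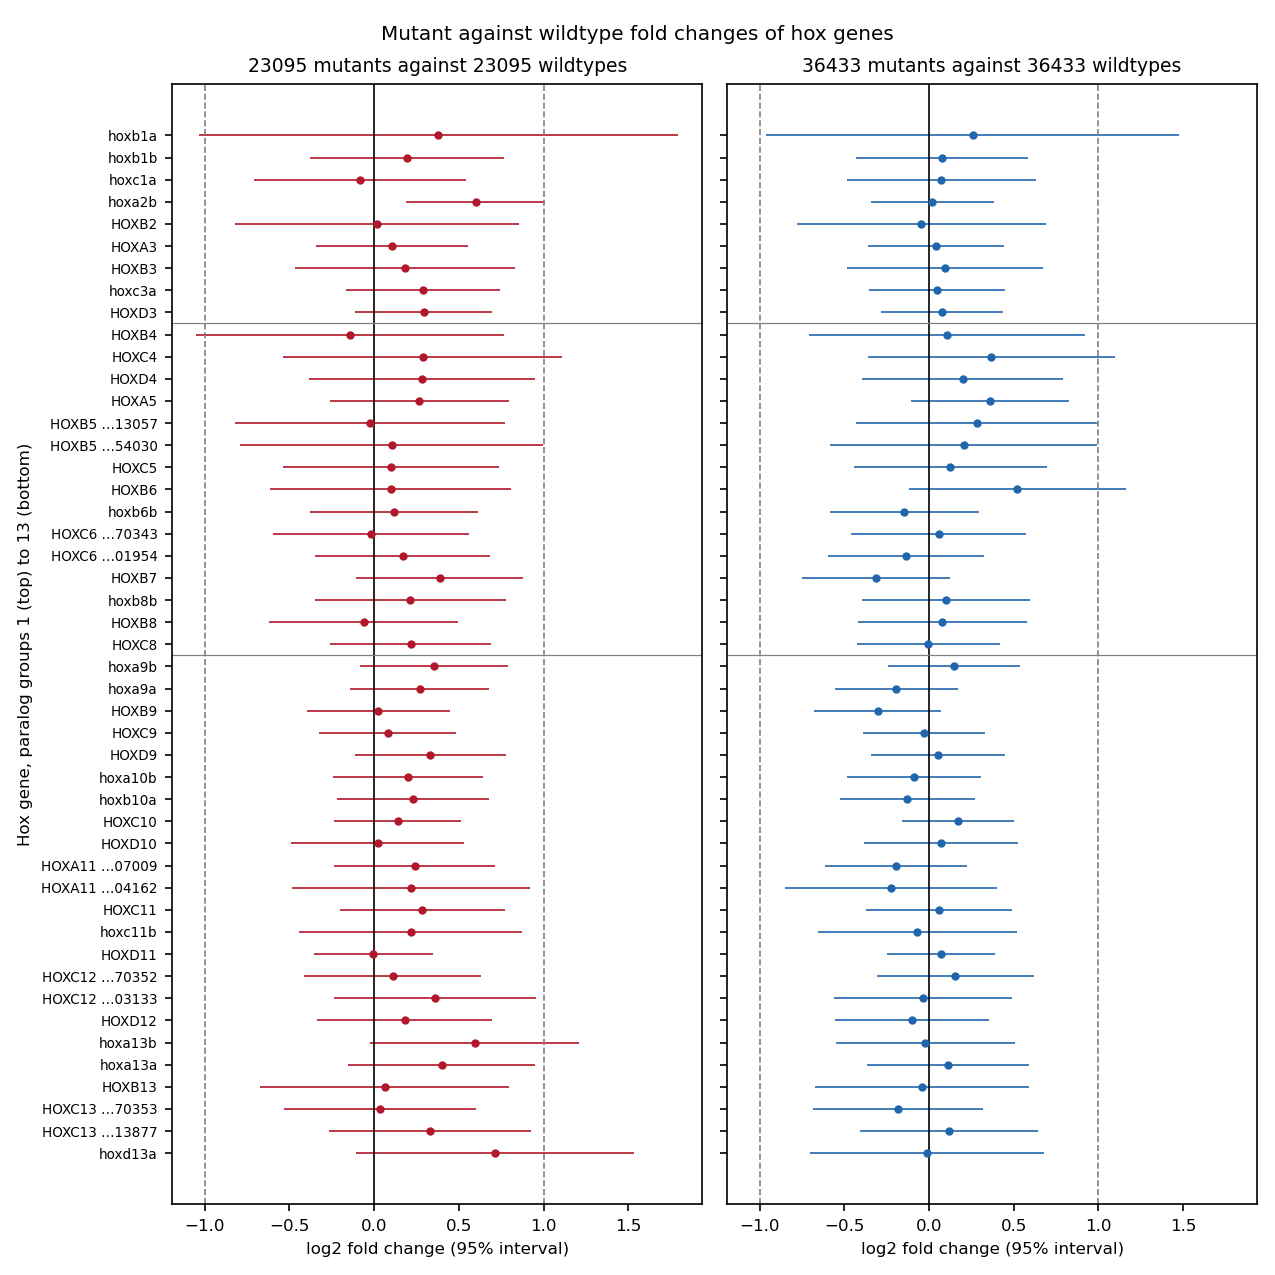
Log2 fold change of 47 hox genes in mutants against wildtypes (points) with the 95% interval (lines), for line 23095 on the left and line 36433 on the right, ordered from paralog group 1 at the top to 13 at the bottom with lines between the 3 position classes and dashed lines at -1 and 1. In line 23095 the points lie mostly to the right of 0 (41 of 47), in line 36433 they lie on both sides (28 of 47 to the right).

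In line 23095, mutants had a median hox log2 fold change of 0.21 over wildtypes, against 0.02 over all tested genes, and 42 of 48 hox genes had a value above 0, against 51.9% of all genes. The values ran from -0.14 to 0.71. All 11 genes of cluster a, 12 of 15 of cluster b, 13 of 15 of cluster c and 6 of 7 of cluster d were above 0. By position, 9 of 10 anterior, 11 of 15 central and 22 of 23 posterior genes were above 0. This lean depended on single libraries: 30 of 48 genes were above 0 without 23095 mutant replicate 4, 34 without mutant replicate 1 and 37 without wildtype replicate 1, and 46 without mutant replicate 2. Without mutant replicate 4, 11 of 23 posterior genes and 6 of 15 genes of cluster c were above 0. Without mutant replicate 1, 7 of 15 central genes and 6 of 15 genes of cluster b were. Scaling by library totals alone moved the median of all genes by 0.12 and left 47 of 48 above 0.

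The member with the smallest p in line 23095 was hoxa2b, a selector of the pharyngeal arches and hindbrain in zebrafish. It was at 15.03, 15.28 and 15.35 CPM in the 23095 mutants, against 9.72 and 10.4 CPM in the 23095 wildtypes. Every mutant library lay above both wildtypes, and the replicates were close together. The log2 fold change was 0.60 ± 0.19 (SE), with a 95% interval of 0.19 to 1.01 and an adjusted p of 0.132 by edgeR's quasi-likelihood test. In line 36433, hoxa2b was at 8.98, 10.9 and 13.4 CPM in mutants and at 11.7, 10.4 and 10.8 CPM in wildtypes, where the mutants spread to both sides of the wildtypes. The difference between the lines was 0.58 ± 0.25 on the log2 scale (adjusted p = 0.639, edgeR), and 0.38 without both libraries numbered 1 of line 36433.

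HOXB7, a trunk gene, had values on opposite sides in the lines. It was at 28.0, 17.7 and 32.2 CPM in the 23095 mutants, against 16.98 and 23.1 CPM in the 23095 wildtypes, with overlap. It was at 18.7, 17.5 and 20.9 CPM in the 36433 mutants, against 21.4, 25.0 and 24.5 CPM in the 36433 wildtypes, where all mutants lay below all wildtypes. The log2 fold changes were 0.39 ± 0.23 in line 23095 and -0.32 ± 0.20 in line 36433, with adjusted p of 0.423 and 0.812 by edgeR. The value in line 23095 was 0.18 without mutant replicate 4 and without wildtype replicate 1, 0.59 without mutant replicate 2 and 0.62 without wildtype replicate 2. The difference between them was 0.70 ± 0.31 (adjusted p = 0.639).

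Group 9 genes act in the posterior trunk, and in the mouse they pattern the rib cage together. hoxa9b was at 41.4, 39.0 and 56.8 CPM in the 23095 mutants, against 35.0 and 36.8 CPM in the 23095 wildtypes, without overlap (log2 fold change 0.35 ± 0.20, adjusted p = 0.412, edgeR). The value was 0.14 without mutant replicate 4, the highest library. In line 36433 it was at 32.8, 37.4 and 48.4 CPM in mutants and at 31.9, 38.2 and 37.1 CPM in wildtypes. Its duplicate hoxa9a was at 34.2, 26.0 and 40.5 CPM in the 23095 mutants and at 26.5 and 29.5 CPM in the 23095 wildtypes, with the lowest mutant below both wildtypes. hoxa9a was at 28.9, 27.4 and 35.5 CPM in the 36433 mutants and at 33.6, 35.8 and 35.5 CPM in the 36433 wildtypes, and its difference between lines was 0.46 ± 0.25 (adjusted p = 0.725, edgeR) and 0.27 without 23095 mutant replicate 4. HOXD9 was at 37.3, 34.7 and 47.5 CPM in the 23095 mutants, against 30.1 and 33.4 CPM in the 23095 wildtypes (log2 fold change 0.33, adjusted p = 0.454, edgeR). In line 36433 HOXD9 was at 30.7, 33.6 and 43.1 CPM in mutants and at 27.5, 38.5 and 37.6 CPM in wildtypes, with overlap. It was 1 of 5 hox genes with every 23095 mutant library above every 23095 wildtype library, with hoxa2b, hoxa9b, hoxa13b and HOXD3, where 16.4% of all genes had that order, and 0 hox genes had the reverse order, against 17.4% of all genes.

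The group 13 genes stand at the far end of the clusters. They act at the end of the body axis and, in zebrafish, in the fins. hoxa13b was at 6.98, 10.9 and 10.3 CPM in the 23095 mutants, against 6.06 and 6.31 CPM in the 23095 wildtypes. All mutants of line 23095 were above its wildtypes (log2 fold change 0.59 ± 0.29, adjusted p = 0.320, edgeR). In line 36433 it was at 8.59, 10.9 and 10.9 CPM in mutants, against 6.99, 10.4 and 13.6 CPM in wildtypes, a complete overlap.

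hoxd13a was at 5.49, 5.57 and 11.7 CPM in the 23095 mutants, against 2.97 and 6.44 CPM in the 23095 wildtypes. The replicates of line 23095 differed by more than 2-fold within each genotype, and the groups overlapped. The log2 fold change was 0.71 ± 0.38 (adjusted p = 0.373, edgeR), and it was 0.21 without 23095 mutant replicate 4, 0.26 without wildtype replicate 1 and 1.37 without wildtype replicate 2. In line 36433 hoxd13a was at 9.68, 9.51 and 11.2 CPM in mutants and at 7.95, 12.6 and 10.2 CPM in wildtypes, with the mutants inside the range of the wildtypes.

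hoxa13a was at 8.71, 9.20 and 12.98 CPM in the 23095 mutants, against 6.63 and 9.09 CPM in the 23095 wildtypes. It was at 11.4, 12.9 and 15.4 CPM in the 36433 mutants, against 9.68, 14.996 and 12.2 CPM in the 36433 wildtypes. Mutants overlapped wildtypes in both lines, and the average log2 fold change was 0.26 ± 0.17 (adjusted p = 0.469, edgeR), with 0.14 without 23095 mutant replicate 4 and 0.15 without 23095 wildtype replicate 1. HOXB13, whose mouse counterpart limits the length of the tail, was at 5.96, 8.94 and 6.38 CPM in the 23095 mutants and at 5.93 and 7.46 CPM in the 23095 wildtypes. It was at 7.65, 13.5 and 10.3 CPM in the 36433 mutants and at 6.48, 11.2 and 14.8 CPM in the 36433 wildtypes. The genotypes overlapped in both lines.

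HOXC13 stands on 2 identifiers. ENSDARG00000070353 was at 26.2, 23.8 and 32.7 CPM in the 23095 mutants, at 25.9 and 28.1 CPM in the 23095 wildtypes, at 24.4, 42.4 and 32.5 CPM in the 36433 mutants and at 25.5, 43.6 and 44.0 CPM in the 36433 wildtypes. ENSDARG00000113877 was at 14.7, 12.4 and 25.1 CPM in the 23095 mutants, at 12.5 and 15.5 CPM in the 23095 wildtypes, at 16.7, 19.1 and 19.3 CPM in the 36433 mutants and at 12.8, 18.3 and 19.8 CPM in the 36433 wildtypes. Neither identifier separated the genotypes in either line. All 6 group 13 genes had a fitted log2 fold change above 0 in line 23095 (0.04 to 0.71, median 0.36), and 2 of 6 did in line 36433 (-0.19 to 0.12). The count of 2 was 5 without 36433 mutant replicate 1, 1 without mutant replicate 3, 0 without wildtype replicate 1, 3 without wildtype replicate 2 and 4 without wildtype replicate 3. In line 23095, only mutant replicate 4 lay above both wildtypes for hoxd13a and both HOXC13 identifiers, and only mutant replicate 2 for HOXB13.

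**Figure D4:**
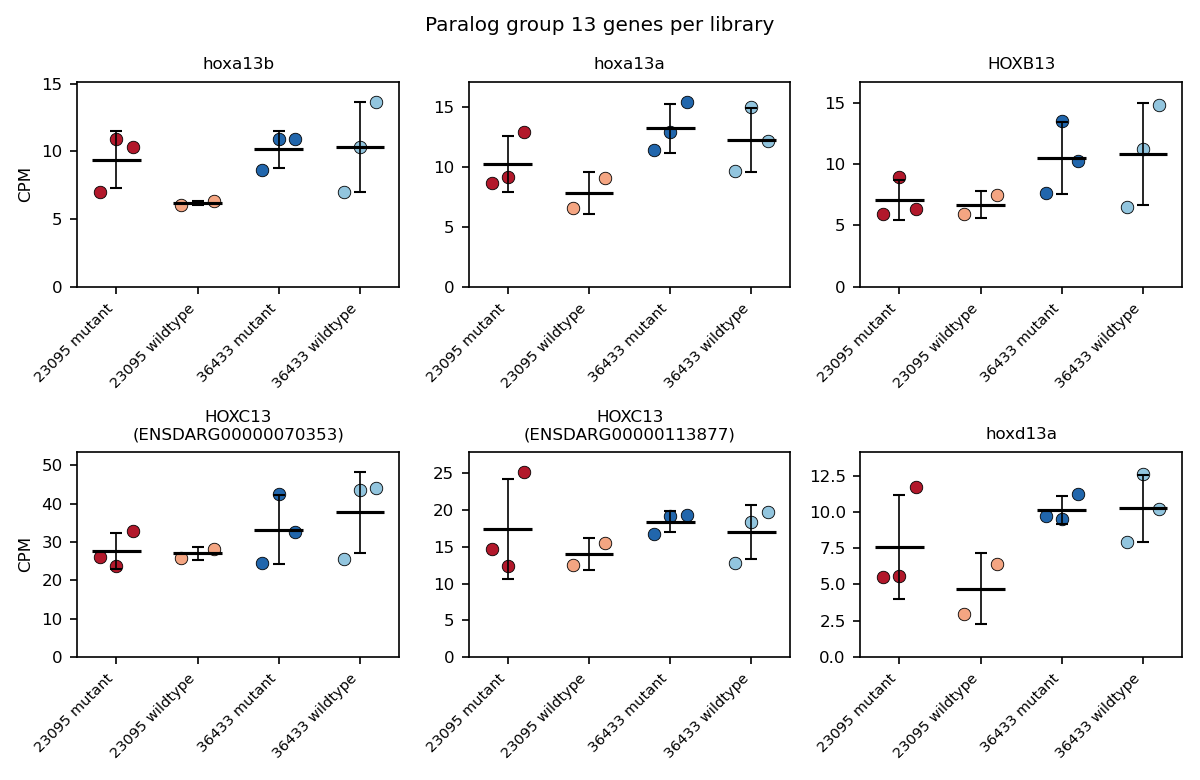
CPM of the 6 paralog group 13 genes (1 panel each) in single libraries (points) of the 23095 mutants, 23095 wildtypes, 36433 mutants and 36433 wildtypes, with the mean (long line) and SD (bars). For hoxa13b, hoxa13a and hoxd13a both 23095 wildtype points lie below all 3 points of the 36433 wildtypes, and mutants overlap wildtypes in every panel of line 36433.

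In line 36433 the hox genes showed less lean. The median log2 fold change of mutants over wildtypes was 0.05, against -0.02 over all genes, and 28 of 48 were above 0, against 47.6% of all genes. The count was 28 also without both libraries numbered 1 and 34 under library totals. It was 20 without 36433 mutant replicate 3 (median -0.03) and 22 without wildtype replicate 2 (median -0.02), so the sign of the median turned with either library. The highest value was 0.52. HOXB7 was the only hox gene whose mutants and wildtypes did not overlap, in the lower direction, where 6.28% of all genes had that order, and 0 hox genes had the reverse, against 7.23% of all genes. Over both lines together, 0 hox genes had every mutant above or every mutant below the wildtypes of its line in the same direction, against 2.58% of all genes higher and 1.44% lower.

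The trunk gene HOXB6 had the smallest p in line 36433. It was at 22.2, 18.6 and 18.0 CPM in the 36433 mutants, against 19.5, 11.03 and 10.4 CPM in the 36433 wildtypes, where 1 wildtype library lay among the mutants. That library was replicate 1, and the log2 fold change of 0.52 ± 0.30 (adjusted p = 0.795, edgeR) was 0.87 without it and 0.78 without both libraries numbered 1. HOXB6 was at 22.1, 9.07 and 20.4 CPM in the 23095 mutants and at 15.3 and 17.3 CPM in the 23095 wildtypes.

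HOXB9, a posterior trunk gene, was at 103, 106 and 118 CPM in the 36433 mutants, against 111, 145 and 147 CPM in the 36433 wildtypes (log2 fold change -0.30 ± 0.17, adjusted p = 0.795, edgeR). Again wildtype replicate 1 lay inside the range of the mutants. In line 23095 it was at 124, 87.6 and 137 CPM in mutants and at 107 and 122 CPM in wildtypes, with the mutants on both sides.

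HOXA5, which in the mouse patterns the vertebrae of the neck and upper chest, was at 16.6, 12.1 and 15.3 CPM in the 36433 mutants and at 14.9, 8.47 and 10.9 CPM in the 36433 wildtypes. It was at 16.5, 11.7 and 14.1 CPM in the 23095 mutants and at 11.1 and 12.5 CPM in the 23095 wildtypes. The highest library of each line was a mutant and the lowest a wildtype, with overlap between them. The average log2 fold change was 0.31 ± 0.16 (adjusted p = 0.349, edgeR).

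In the average of both lines, 40 of 48 hox genes had a log2 fold change above 0, against 50.4% of all genes, with a median of 0.11 against 0.00 over all genes. The count was 30 without 23095 mutant replicate 4, 31 with a replicate block and 32 without 23095 wildtype replicate 1. It was 42 without both libraries numbered 1 of line 36433 and 47 under library totals. hoxa2b had the smallest p (log2 fold change 0.31 ± 0.13, adjusted p = 0.227, edgeR), followed by HOXA5 and by hoxa9b (0.25 ± 0.14, adjusted p = 0.369). The value of hoxa9b was 0.14 without 23095 mutant replicate 4 and 0.16 without 36433 mutant replicate 3. The mutant effect was larger in line 23095 for 34 of 48 hox genes (median 0.21), against 52.8% of all genes, and for all 6 group 13 genes (by 0.11 to 0.73 on the log2 scale). For some group 13 genes only 1 mutant library of line 23095 lay above both of its wildtypes, as given above. The count of 34 was 27 without 23095 mutant replicate 4 (median 0.03), 28 without 23095 wildtype replicate 1 and 30 without both libraries numbered 1 of line 36433 (median 0.13), and 41 under library totals. HOXA11 (ENSDARG00000007009), which in the mouse patterns the forelimb, was among the 5 with the smallest p for that difference (0.43 ± 0.29, adjusted p = 0.796, edgeR). It was at 36.0, 32.5 and 49.2 CPM in the 23095 mutants, at 31.1 and 35.7 CPM in the 23095 wildtypes, at 26.9, 33.2 and 38.2 CPM in the 36433 mutants and at 30.8, 44.7 and 37.2 CPM in the 36433 wildtypes, with mutants and wildtypes overlapping in each line. The difference was 0.21 without 23095 mutant replicate 4 and 0.29 without 36433 mutant replicate 1.

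Line 23095 and line 36433 were also set against each other within a genotype. The wildtypes of line 23095 were above those of line 36433 in fitted level for 13 of 48 hox genes, against 48.5% of all genes, and the median log2 fold change was -0.13, against -0.02 over all genes. The count of 13 was 6 without 23095 wildtype replicate 2, 7 without 36433 wildtype replicate 2, 18 without both libraries numbered 1 of line 36433, and 4 under library totals. All 10 anterior genes and 19 of 23 posterior genes were below 0, and 9 of 15 central genes were above 0. Without 36433 wildtype replicate 1, 5 of 10 anterior genes were above 0. The count of 9 central genes was 1 without 36433 wildtype replicate 2, 5 without wildtype replicate 3 of that line and 4 without 23095 wildtype replicate 2. All 6 group 13 genes were below 0, with a median of -0.67. Line and clutch cannot be told apart in this comparison.

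The 5 hox genes with the smallest p in that comparison were all of group 13. The 23095 wildtypes had 2.97 and 6.44 CPM of hoxd13a, against 7.95, 12.6 and 10.2 CPM in the 36433 wildtypes (log2 fold change -1.12 ± 0.38, adjusted p = 0.207, edgeR). The value was -0.67 without 23095 wildtype replicate 1, -1.78 without wildtype replicate 2 of that line and -1.27 without both libraries numbered 1 of line 36433. The other group 13 genes among the 5 were hoxa13b (-0.74 ± 0.28, adjusted p = 0.267), hoxa13a (-0.64 ± 0.26, adjusted p = 0.283), HOXB13 (-0.69 ± 0.34, adjusted p = 0.388) and HOXC13 (ENSDARG00000070353, -0.48 ± 0.26, adjusted p = 0.453). Without 36433 wildtype replicate 3 the value of hoxa13b was -0.49 and that of HOXB13 -0.40. For hoxd13a, hoxa13b and hoxa13a every 23095 wildtype lay below every 36433 wildtype, and for HOXB13 and HOXC13 the groups overlapped through 36433 wildtype replicate 1. In all, 8 hox genes had that order between wildtypes, against 14.6% of all genes, and 0 had the reverse, against 16.4% of all genes. Besides those 3, they were hoxa2b, hoxa9a, hoxb6b, HOXC11 and HOXD12.

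Between the mutants of the lines the hox genes lay on both sides of 0, unevenly over clusters and paralog groups. Line 23095 was higher for 20 of 48, against 52.3% of all genes, with a median log2 fold change of -0.01, against 0.02 over all genes. The count was 38 without 23095 mutant replicate 2, 7 without mutant replicate 4 of that line and 24 without both libraries numbered 1 of line 36433. All 6 group 13 genes were below 0 here too (median -0.31, highest -0.06). By cluster, 7 of 11 genes of cluster a, 3 of 15 of cluster b, 6 of 15 of cluster c and 4 of 7 of cluster d were above 0. hoxa2b was the only hox gene without overlap, higher in the 23095 mutants (0.45 ± 0.17, adjusted p = 0.247, edgeR, and 0.30 without both libraries numbered 1 of line 36433), where 9.79% of all genes had that order, and 0 had the reverse, against 10.8%. HOXB7 had 0.46 ± 0.20 (adjusted p = 0.335) and HOXB13 -0.59 ± 0.30 (adjusted p = 0.415). They were 0.26 for HOXB7 without 23095 mutant replicate 4 and -0.38 for HOXB13 without 36433 mutant replicate 2. The trunk gene HOXB5 (ENSDARG00000054030) was at 29.9, 14.1 and 22.6 CPM in the 23095 mutants, against 49.0, 26.6 and 24.9 CPM in the 36433 mutants (-0.58 ± 0.37, adjusted p = 0.528, edgeR). The value was -0.22 without 36433 mutant replicate 1, -0.35 without 23095 mutant replicate 2 and -0.86 without 23095 mutant replicate 1. HOXB5 was at 20.6 and 21.2 CPM in the 23095 wildtypes and at 47.6, 17.3 and 22.1 CPM in the 36433 wildtypes, so that the 2 highest values both belonged to libraries numbered 1 of line 36433.

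Summed by cluster, hox levels overlapped between mutants and wildtypes in both lines for each of the 4 clusters. Cluster a summed to 334, 260 and 365 CPM in the 23095 mutants, against 258 and 284 CPM in the 23095 wildtypes, and to 287, 289 and 330 CPM in the 36433 mutants, against 312, 293 and 309 CPM in the 36433 wildtypes. Cluster b summed to 568, 381 and 554 CPM in the 23095 mutants, to 447 and 493 CPM in the 23095 wildtypes, to 595, 470.2 and 499 CPM in the 36433 mutants and to 629, 459 and 499.6 CPM in the 36433 wildtypes. Its highest library in line 36433 was replicate 1 of each genotype. Cluster c averaged 495 ± 109 CPM in the 23095 mutants, 446 ± 30 CPM in the 23095 wildtypes, 510 ± 15 CPM in the 36433 mutants and at 496 ± 26 CPM in the 36433 wildtypes (SD, n = 3, 2, 3 and 3). Cluster d averaged 183 ± 38 CPM in the 23095 mutants, 156 ± 9.0 CPM in the 23095 wildtypes, 175 ± 18 CPM in the 36433 mutants and at 168 ± 6.2 CPM in the 36433 wildtypes.

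By position, the anterior genes summed to 520, 387 and 509 CPM in the 23095 mutants, to 422 and 413 CPM in the 23095 wildtypes, to 559, 430 and 483 CPM in the 36433 mutants and to 608, 396 and 409 CPM in the 36433 wildtypes. The posterior genes summed to 631, 530 and 795 CPM in the 23095 mutants, to 544 and 614 CPM in the 23095 wildtypes, to 548, 659 and 690 CPM in the 36433 mutants and to 552, 717 and 727 CPM in the 36433 wildtypes. In both classes the mutants and wildtypes of each line overlapped. On the log2 scale, the sums of mutants over wildtypes differed by 0.17 (anterior), 0.07 (central) and 0.15 (posterior) in line 23095 and by 0.08, 0.11 and -0.07 in line 36433. The SD between replicates on that scale, pooled over the genotypes of a line without regard to replicate number, was 0.195 to 0.393 and larger than each of these differences in its own class and line. By cluster, the SD was smaller than the difference only for cluster a in line 23095 (0.222 against an SD of 0.216).

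**Figure D5:**
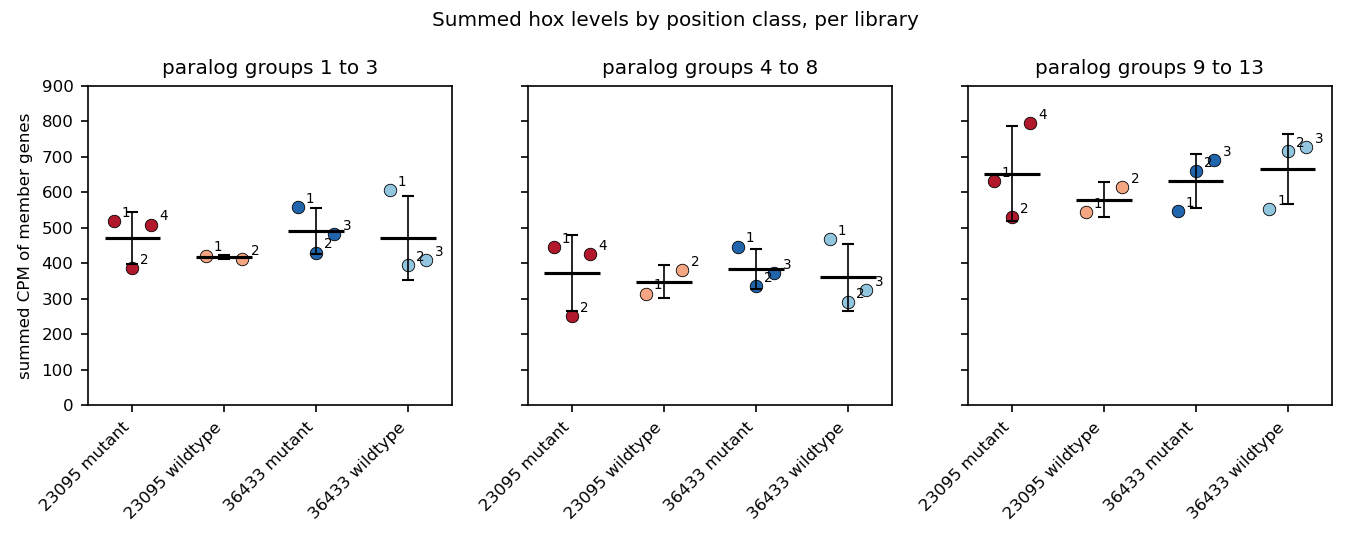
Summed CPM of the hox genes of paralog groups 1 to 3 (left), 4 to 8 (middle) and 9 to 13 (right) in each library (points, numbered by replicate) of the 4 groups, with the mean (long line) and SD (bars). Mutants and wildtypes overlap in every class and line, and in line 36433 replicate 1 of both genotypes is highest in the left and middle panels and lowest in the right panel.

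The spread between replicates was uneven over groups and clusters. The highest library of a group was more than 2-fold above its lowest for 9 hox genes in the 23095 mutants, 1 in the 23095 wildtypes, 1 in the 36433 mutants and 10 in the 36433 wildtypes. The 23095 wildtypes had 2 libraries and the other groups 3, and a range over fewer libraries tends to be narrower. Of the 21 cases, 12 were genes of cluster b, which holds 15 of the 48 genes, and 3 each were of clusters a, c and d. Most genes of cluster b are anterior or central, so cluster and position are not separated in these counts. The widest case was hoxb1a, which sets the identity of a hindbrain segment in zebrafish, at 5.78, 3.06 and 2.03 CPM in the 36433 mutants and at 6.16, 1.34 and 1.54 CPM in the 36433 wildtypes. It was at 4.41, 2.85 and 1.64 CPM in the 23095 mutants and at 2.59 and 1.97 CPM in the 23095 wildtypes. The highest library in each group of line 36433 was again replicate 1.

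Among the anterior genes with the most counts in their clusters, HOXA3, which in the mouse shapes the thymus and other arch derivatives, averaged 99.2 ± 20.3 CPM in the 23095 mutants and at 92.4 ± 6.57 CPM in the 23095 wildtypes, and 104 ± 10.2 CPM in the 36433 mutants and at 101 ± 22.2 CPM in the 36433 wildtypes. HOXB3 averaged 99.8 ± 7.67 CPM in the 23095 mutants and at 87.9 ± 7.06 CPM in the 23095 wildtypes, and 101 ± 18.5 CPM in the 36433 mutants and at 94.4 ± 47.98 CPM in the 36433 wildtypes, where replicate 1 was at 149 CPM, against 60.7 and 73.1 CPM. For both genes the mutant and wildtype libraries overlapped in each line.

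In cluster c, hoxc3a was at 123, 82.0 and 140 CPM in the 23095 mutants, at 96.5 and 91.8 CPM in the 23095 wildtypes, at 124, 103 and 118 CPM in the 36433 mutants and at 123, 119 and 92.5 CPM in the 36433 wildtypes. Its neighbour hoxc1a was at 69.3, 42.5 and 42.6 CPM in the 23095 mutants, at 58.3 and 51.2 CPM in the 23095 wildtypes, at 91.6, 58.3 and 53.3 CPM in the 36433 mutants and at 86.4, 50.6 and 56.3 CPM in the 36433 wildtypes. For hoxc1a, replicate 1 was the highest library of every group. HOXD3, whose mouse counterpart shapes the uppermost vertebrae, was at 35.9, 40.9 and 49.4 CPM in the 23095 mutants, against 35.2 and 33.6 CPM in the 23095 wildtypes, a separation by less than 1 CPM, and at 31.4, 37.6 and 46.3 CPM in the 36433 mutants and at 39.5, 34.3 and 35.6 CPM in the 36433 wildtypes, with overlap.

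None of the genes listed as partners or regulators of hox genes passed the test in the average of both lines or in any other of the 6 comparisons by the quasi-likelihood test. DESeq2 called 2 of 17 regulators in the 23095 mutants, 1 in the average and 2 between wildtypes. It also made more calls over all genes, with 980, 1083 and 569 in the same order. The quasi-likelihood test made 340, 486 and 82. Of the 14 TALE cofactors tested in the average, 0 rose and 0 fell at an adjusted p under 0.05, where 2.33% of all genes were called. A log2 fold change above 0 was found for 5 of them, against 50.4% of all genes. That count was 8 without 36433 wildtype replicate 1, 3 without wildtype replicate 2 of that line and 9 under library totals. The smallest p belonged to pbx3a (1.06 ± 0.41, adjusted p = 0.204, edgeR) and pbx1a (-0.32 ± 0.14, adjusted p = 0.249). The values of pbx1a were 20.5, 13.5 and 12.9 CPM in the 23095 mutants, against 24.7 and 24.1 CPM in the 23095 wildtypes, and 20.7, 18.3 and 19.6 CPM in the 36433 mutants, against 21.9, 17.1 and 19.5 CPM in the 36433 wildtypes. PKNOX1 (ENSDARG00000036542) had 0.22 ± 0.16 (adjusted p = 0.531), and 0.12 without 23095 mutant replicate 2.

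Of the 17 upstream regulators, 0 rose and 0 fell in the average, where 2.33% of all genes were called. Values above 0 were found for 11 of them, against 50.4% of all genes. cdx4, a caudal-type activator of posterior hox genes, was at 30.4, 24.4 and 61.7 CPM in the 23095 mutants, against 10.3 and 18.8 CPM in the 23095 wildtypes, without overlap (an order of 16.4% of all genes). It was at 29.4, 28.5 and 30.0 CPM in the 36433 mutants, against 31.2, 30.9 and 22.8 CPM in the 36433 wildtypes, with overlap. The average log2 fold change was 0.74 ± 0.23 (adjusted p = 0.122, edgeR), and 0.47 without 23095 mutant replicate 4. gdf11, a TGF-beta ligand that sets the passage from trunk to tail in the mouse, was at 6.32, 6.22 and 7.06 CPM in the 23095 mutants, against 3.53 and 4.0003 CPM in the 23095 wildtypes, and at 6.40, 6.38 and 6.66 CPM in the 36433 mutants, against 6.35, 5.31 and 6.21 CPM in the 36433 wildtypes (average 0.46 ± 0.14, adjusted p = 0.114). In each line every gdf11 mutant value was above every wildtype value, an order that 2.58% of all genes had. The closest values in line 36433 were 6.38 CPM in a mutant and 6.35 CPM in a wildtype. gdf11 was named for its small p, a choice that favours such an order. CYP26B1 had an average of -1.05 ± 0.48 (adjusted p = 0.278), and -0.28 without 36433 wildtype replicate 1.

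The lower cdx4 and gdf11 values of the 23095 wildtypes were part of lower values of the regulators as a list, to which both genes belong. The list of tailbud markers given next shares cdx4 and other genes with it, so the lists are not independent. Between wildtypes, 1 of 17 regulators was above 0, against 48.5% of all genes, with a median log2 fold change of -0.41 in line 23095 against line 36433, beside the group 13 median of -0.67. Markers of the tailbud and presomitic mesoderm summed to 265, 317 and 383 CPM in the 23095 mutants, against 160 and 193 CPM in the 23095 wildtypes, and to 293, 253 and 294 CPM in the 36433 mutants, against 293, 269 and 220 CPM in the 36433 wildtypes. Of the 17 such markers, 5 rose and 0 fell in the 23095 mutants (tbx16, tbx6, her7, dlc and mespaa), where 1.63% of all genes were called in either direction, and 0 changed in the 36433 mutants (0.168% of all genes). The 5 calls depended on the fit: 0 were made without 23095 mutant replicate 4, without 23095 wildtype replicate 1, with a replicate block or with only the groups compared, and 1 without 23095 wildtype replicate 2, while DESeq2 made 10. In those fits 15 or 16 of the 17 markers were above 0. Over all genes, DESeq2 called 980 in the 23095 mutants against wildtypes, where the quasi-likelihood test called 340. Skeletal muscle markers summed to 34583, 39190 and 20518 CPM in the 23095 mutants, against 59570 and 49242 CPM in the 23095 wildtypes. In line 36433 they summed to 27165, 38876 and 30559 CPM in mutants and to 29202, 24957 and 38470 CPM in wildtypes, with overlap. The part of these tissue markers in the group 13 values was not tested.

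Of the 25 Polycomb and Trithorax genes, which keep hox genes off or on, 0 rose and 0 fell in the average, where 2.33% of all genes were called. Values above 0 were found for 21 of them (against 50.4% of all genes), with a median of 0.16. CBX8 (ENSDARG00000098771), which encodes a Polycomb subunit, was at 3.996, 2.33 and 2.31 CPM in the 23095 mutants, against 4.92 and 4.95 CPM in the 23095 wildtypes, and at 2.499, 3.06 and 3.48 CPM in the 36433 mutants, against 4.30, 4.17 and 4.54 CPM in the 36433 wildtypes. Every mutant library was below every wildtype library of its line, and the average was -0.64 ± 0.19 (adjusted p = 0.114, edgeR). That order was found for 1.44% of all genes, and the choice of CBX8 by its small p favours it. EED, a core subunit of the complex that methylates histone H3 at Polycomb targets, had 0.45 ± 0.16 (adjusted p = 0.157), and kdm6bb, a demethylase that removes that mark, had 0.28 ± 0.11 (adjusted p = 0.196).

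The authors' deposited tables hold an adjusted p for each of the 48 hox genes in 6 comparisons of pairs of groups, and none of those values was under 0.05. By the authors' values, the share of all genes with an adjusted p that were under 0.05 was lowest in the 36433 mutants against 36433 wildtypes (0.573%). It was highest in the 23095 mutants against 36433 wildtypes (10.5%). In the authors' deposited table of 23095 mutants against 23095 wildtypes the lowest was 0.0811 (hoxa2b), where 4.64% of genes with an adjusted p were under 0.05. In the authors' deposited table of 36433 mutants against 36433 wildtypes the lowest was 0.859 (HOXB6), and in the authors' deposited table of 23095 wildtypes against 36433 wildtypes it was 0.0922 (hoxd13a).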

How the data were processed

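The authors deposited 1 table of raw counts for 11 libraries, whole numbers that were not normalized, by Ensembl gene identifier. They also deposited 6 tables of comparisons with log2 fold changes and adjusted p-values per the file headers, used only where named. Per the submitters' processing notes, cutadapt 1.16, STAR 2.7.2c, DESeq2 1.22.2 and GRCz11 were used, with no role stated, and per the labels the kit was stranded with ribosomal RNA removal. The counting tool is not given in the sources used here.

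Symbols came from the gene name table (21998 of 23617 identifiers). Counts were filtered with edgeR's filterByExpr (minimum count 10, minimum total 15), scaled with TMM and fitted with edgeR 4.0.16 in R 4.3.3 (glmQLFit, glmQLFTest, two-sided) as 4 group means over 11 libraries. Adjusted p-values are Benjamini-Hochberg over 20886 genes, called under 0.05. Standard errors and 95% intervals were derived from the F statistic. CPM use TMM library sizes. The fit was tested on simulated data.

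Values per library are given for any hox gene called, the 5 members with the smallest p per comparison, the 2 with the highest mean CPM per cluster, and group 13, except for 1 hox gene that is not reported here by name and is left out of plots by gene. From each list of partners or regulators up to 3 genes with the smallest p in the average are named, and other genes named were chosen after their values were seen. List symbols were matched exactly or through human-style symbols (TALE cofactors 14 of 14, regulators 17 of 19, Polycomb and Trithorax 25 of 25). The members and lists were chosen with earlier results of these data known.

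Other settings tried were scaling by library totals or by size factors from DESeq2, no filter, a filter of 1 CPM in 3 libraries, the Wald test of DESeq2 1.42.0, a fit restricted to the groups compared, a replicate block, and each library left out in turn. The newer quasi-likelihood form and leaving out both libraries numbered 1 of line 36433 were added after seeing the data. Protein and promoter sequences were not used here.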

Additional observations from a re-analysis of the deposited data

How the results depend on the processing

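The 6 comparisons under other settings gave 96 alternative results, and 0 hox genes were called in any. Many of these results were contrasts of the same fit, so they are not separate checks. The lowest adjusted p was 0.062 (edgeR), for the average of both lines without 36433 wildtype replicate 1. Of 636 alternative values for 38 log2 fold changes of named genes, 633 stayed uncalled, with a missing adjusted p taken as uncalled. Of the rest, 0 reversed and 3 became called (1 each of cdx4, CBX8 and kdm6bb in the average). These genes were named for a small p in these same data, a choice that favours a steady sign, and none was called in the main fit. The counts are therefore no measure of how steady hox values are in general. Libraries of the same replicate number were not treated as pairs, and whether they are pairs could not be settled. Deviations from the group means over 20886 genes correlated at 0.200, 0.0805 and 0.0182 for the same-numbered pairs of line 36433. For those of line 23095 they correlated at -0.0779 and -0.183. With 2 wildtype libraries in line 23095 their deviations mirror each other, so its pairs carry little information. Over the 48 hox genes alone the same pairs correlated at 0.828, 0.642 and 0.434 in line 36433 and at 0.235 and -0.244 in line 23095. Replicate 1 of the 36433 mutants correlated at -0.781 and -0.755 with wildtype replicates 2 and 3. However, mutant replicate 2 of that line correlated more with wildtype replicate 3 (0.671) than with its own number. Mutant replicate 3 likewise correlated more with wildtype replicate 2 (0.504). In line 36433, 5 hox genes were higher in every mutant than in the wildtype of its number (HOXA5, HOXB5 of ENSDARG00000054030, HOXB6, HOXC10 and HOXD11), against 15.2% of all genes, and 6 were lower (HOXB9 among them), against 14.4%. The replicate block had 1 term per replicate number, shared by both lines, and number 4 belonged to 23095 mutant replicate 4 alone. That library therefore dropped out of the contrasts of the blocked fit. In that fit, the hox count stayed 0 in all 6 comparisons (lowest adjusted p in the 36433 mutants 0.857, HOXB6). There 25 instead of 34 hox genes were above 0 in the difference between lines, and 27 instead of 42 in the 23095 mutants against wildtypes. Over all genes the block gave 9 calls instead of 340 in that comparison, 22 instead of 35 in the 36433 mutants, 108 instead of 486 in the average, 0 instead of 2 in the difference and 64 instead of 235 between mutants. DESeq2 gave 980, 124, 1083, 57 and 602 in the same order, and 569 instead of 82 between wildtypes. A fit of only the groups compared gave 6 in the 23095 mutants and 52 between wildtypes. Leaving out a library gave 4 to 466 in the 23095 mutants, 12 to 64 in the 36433 mutants, 56 to 1439 in the average, 0 to 4 in the difference, 21 to 301 between wildtypes and 65 to 177 between mutants. The lowest of these in the 23095 mutants came without 23095 wildtype replicate 1, which leaves 1 library in that group, assumed to vary like the other groups. The newer quasi-likelihood form gave 132 between wildtypes, and leaving out both libraries numbered 1 gave 16 in the 36433 mutants, 0 in the difference and 107 between mutants. The cause of these shifts was not tested.

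The summed level of cluster a in the 23095 wildtypes against the 36433 wildtypes was -0.17 on the log2 scale, -0.24 under library totals, and -0.24 to -0.10 without single libraries. Cluster d was -0.10 and, under library totals, -0.17. The SD between replicates, pooled over both groups of wildtypes, was 0.070 for cluster a and 0.065 for cluster d. Clusters b and c were at -0.16 and -0.15, with an SD of 0.201 and 0.082. With 2 or 3 pools per group, the standard error of a hox log2 fold change in the 23095 mutants was 0.164 to 0.655. Differences above 1.5-fold could go uncalled there, as for hoxa2b (log2 fold change 0.60, adjusted p = 0.132, edgeR). CPM precision for hox genes of few counts is limited, with counts as low as 20 for hoxb1a, and the depth of 23095 mutant replicate 2 was 8204459.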
